A study of Mus musculus with 18 samples.

Results

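RNA levels of 10 genes of the mouse pluripotency network were followed through 18 libraries of progenitors made from embryonic stem cells. The genes were Pou5f1, Nanog, Esrrb, Klf2, Klf4, Tfcp2l1, Prdm14, Zfp42, Dppa5a and Tdgf1, 10 of the 37224 genes in the count table. They were taken by name as members of the network, with earlier results of these data known, and the symbol of each matched a single Ensembl gene in the table. Each was detected in all 18 libraries, with the lowest counts for Prdm14 in neuromesodermal progenitors (1 to 3 per library).

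Pluripotency is held in embryonic stem cells by a network of transcription factors that activate one another. Pou5f1 (which encodes Oct4) and Nanog form its core with Sox2, and Esrrb, Klf2, Klf4, Tfcp2l1, Prdm14 and Zfp42 belong to the naive state of the inner cell mass, part of which is sustained by LIF and STAT3 signalling. On differentiation the naive genes are lost early, whereas Pou5f1 and the Nodal co-receptor gene Tdgf1 (also called Cripto) persist in the epiblast and around the primitive streak. Neuromesodermal progenitors arise from that region and give rise to spinal cord and paraxial mesoderm.

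The study asked by RNA sequencing what the homeodomain transcription factor Hoxb1 does in neuromesodermal progenitors (NMPs) and in neural progenitors, with 3 libraries in each of 6 groups. All cells were derived from C57BL/6 embryonic stem cells, according to the labels. The NMP groups were Hoxb1-null and wild type. The neural progenitor groups were Hoxb1 with SAG, SAG without Hoxb1, Hoxb1 without SAG, and neither, where SAG is an agonist of Smoothened that activates hedgehog signalling. Among the neural progenitors, doxycycline was given to the groups with Hoxb1 and not to those without it. The effects of the gene and of the drug therefore cannot be told apart there. The sources used here do not say whether the libraries of a group were separate cultures or whether a group came from more than 1 clone. Tests therefore measure the spread between these libraries, which may be technical.

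The promoters of 3 members are shown as examples. Zfp42 and Esrrb fell with Hoxb1 without SAG and not with SAG, a pattern shared by Klf4, Tfcp2l1, Dppa5a and Prdm14. Pou5f1 was the 1 member whose change with Hoxb1 did not differ by SAG beyond the threshold. Each sequence runs 5′ to 3′ on the gene's strand and covers 250 bases before to 50 bases after a RefSeq start site (RefSeq, GRCm38.p6). The Zfp42 window lies at chr8:43306960-43307259 on the minus strand. The second of the Esrrb start sites lies at chr12:86421394-86421693 on the plus strand, and the upstream Pou5f1 start site at chr17:35505782-35506081 on the plus strand. Capitals mark matches to the motifs described after the sequences.
Zfp42: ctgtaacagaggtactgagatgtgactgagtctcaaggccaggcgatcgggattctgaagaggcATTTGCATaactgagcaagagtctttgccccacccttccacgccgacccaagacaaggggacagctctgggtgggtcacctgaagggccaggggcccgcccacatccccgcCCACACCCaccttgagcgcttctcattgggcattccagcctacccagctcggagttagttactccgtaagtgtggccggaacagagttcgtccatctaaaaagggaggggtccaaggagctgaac
Esrrb: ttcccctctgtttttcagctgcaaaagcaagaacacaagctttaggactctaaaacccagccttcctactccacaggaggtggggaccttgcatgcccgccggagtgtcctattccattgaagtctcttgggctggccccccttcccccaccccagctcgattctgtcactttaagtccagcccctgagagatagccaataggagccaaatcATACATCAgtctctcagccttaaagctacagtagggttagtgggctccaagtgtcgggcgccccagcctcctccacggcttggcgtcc
Pou5f1: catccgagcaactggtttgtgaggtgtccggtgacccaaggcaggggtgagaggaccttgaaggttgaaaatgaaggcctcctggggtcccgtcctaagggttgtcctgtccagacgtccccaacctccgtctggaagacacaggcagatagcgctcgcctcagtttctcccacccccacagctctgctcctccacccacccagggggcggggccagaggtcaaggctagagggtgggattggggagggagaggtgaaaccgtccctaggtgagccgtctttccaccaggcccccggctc

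RefSeq windows were found for 8 of the 10 members (11 windows, since some genes have several start sites), and Dppa5a and Prdm14 had none in the table used. Exact matches were sought on both strands for 6 motifs: the octamer ATGCAAAT bound by Oct4, CATTGTT of Sox factors, TCAAGGTCA of Esrrb, GGGTGTGG of Klf factors, TTCCNNGAA of Stat factors and TGATNNAT of Hox-Pbx pairs. The Zfp42 window held the octamer at -186 to -179 and the Klf letters at -75 to -68, counted from the start site. Among all 32851 windows of the same length, 1.74% held the octamer and 3.56% the Klf letters. The Esrrb window shown held the Hox-Pbx letters at -38 to -31, which 8.85% of all windows hold. The first Esrrb start site, not printed, had the Stat letters (4.81% of all windows), and the downstream Pou5f1 start site the Sox letters (3.78%). No member window matched the Esrrb motif, present in 0.423% of windows, and the Pou5f1 window shown matched none of the 6. Windows of Tfcp2l1, Klf4, Nanog, Klf2 and Tdgf1, not printed, matched none either. Zfp42 and Esrrb thus had matches, and Tfcp2l1 and Klf4, which shared their pattern, had none. These matches describe letters in short windows and say nothing of binding.

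Total counts per library lay between 13301476 and 26974315, and the 6 neural progenitor libraries with SAG were the deepest. Hoxb1 stood at 15.1 ± 0.818 CPM (counts scaled to library size, SD, n = 3) in Hoxb1-null NMPs, against 252 ± 16.3 in the wild type. In neural progenitors its mean was 324 ± 16.2 CPM with Hoxb1 and 0.358 ± 0.288 with neither, and 595 ± 20.2 CPM with Hoxb1 and SAG and 0.463 ± 0.0677 with SAG alone. The 10 NMP markers (T, Cdx2, Wnt3a and others) summed to 1676 to 1816 CPM in Hoxb1-null and 1917 to 2128 CPM in wild-type NMPs, and to 12.6 to 50.2 CPM in neural progenitors. The 10 neural progenitor markers (Sox1, Pax6, Hes5 and others) summed to 1188 to 2506 CPM in neural progenitors and to 391 to 428 CPM in NMPs. Libraries with SAG, libraries without SAG and NMP libraries carry separate runs of library numbers in the labels. Comparisons across these runs therefore cannot tell SAG or cell type apart from the library set. In bulk RNA, fewer cells of a type and less RNA per cell cannot be told apart, which holds for every level given here.

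RNA of all 10 members was detected in each group, but the make-up of this RNA differed between NMPs and neural progenitors. Undifferentiated embryonic stem cells were not among the 18 libraries, so how far the network was lost cannot be said. In TPM (counts corrected for gene length and scaled to a fixed sum, which allows genes to be compared), the 10 members summed to 1187 ± 103 TPM in Hoxb1-null and 949 ± 45.4 TPM in wild-type NMPs (SD, n = 3 each). In neural progenitors the sum was 752 ± 24.4 TPM with Hoxb1 and SAG, 814 ± 33.3 with SAG alone, 299 ± 27.4 with Hoxb1 alone and 553 ± 38.0 with neither. In NMPs nearly all of it came from 2 genes. Pou5f1 made up 50.2% in Hoxb1-null and 46.4% in wild-type NMPs, and Tdgf1 44.4% and 49.2% in the same order of groups. In neural progenitors the largest share was that of Dppa5a, which encodes a KH-domain protein of pluripotent cells. It made up 46.2% with Hoxb1 and SAG, 39.6% with SAG alone, 43.3% with Hoxb1 alone and 42.5% with neither.

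**Figure D1:**
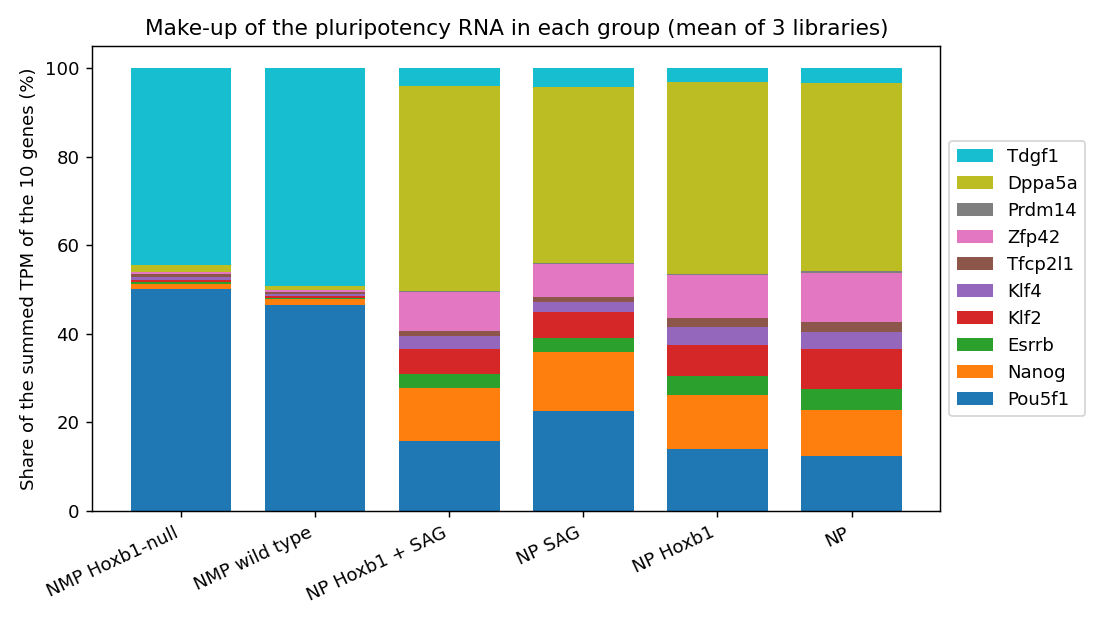
Share of the summed TPM of the 10 pluripotency genes (y axis, percent) held by each gene in each of the 6 groups (x axis), as the mean of 3 libraries. Pou5f1 and Tdgf1 fill most of both NMP bars, and Dppa5a is the largest piece of the 4 neural progenitor bars, at 39.6% to 46.2%.

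Pou5f1 had a percentile rank of 99.2 in TPM among the genes with a count in Hoxb1-null NMPs and of 98.6 in wild-type NMPs. Tdgf1 had ranks of 98.9 and 98.8 there. Esrrb had a rank of 46.9 in Hoxb1-null and 42.97 in wild-type NMPs, and Prdm14 had the lowest of the members, 10.4 and 8.96 in the same order. In neural progenitors Pou5f1 no longer stood apart from Nanog. The ratio of Pou5f1 to Nanog in TPM was 45.3 ± 7.69 in Hoxb1-null and 32.5 ± 0.692 in wild-type NMPs. It was 1.32 ± 0.0743 with Hoxb1 and SAG, 1.70 ± 0.111 with SAG alone, 1.14 ± 0.0415 with Hoxb1 alone and 1.20 ± 0.0668 with neither (SD, n = 3 each). The order of the 2 genes in TPM was thus the same in the 6 groups, and the distance between them was not.

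The order of the 6 groups differed from gene to gene, on the CPM scale that compares 1 gene across libraries. Pou5f1 and Tdgf1 were highest in the NMPs. The ratio of the highest to the lowest group mean was 16.8 for Pou5f1 and 66.2 for Tdgf1, and neural progenitors with Hoxb1 alone had the lowest mean of both. Neighbouring groups in the order of Pou5f1 did not overlap in any library, and those in the order of Tdgf1 overlapped only between the NMP groups. Nanog, Zfp42, Esrrb, Klf2, Klf4, Dppa5a and Prdm14 had the NMPs at the other end of the order. Their 2 NMP groups were the lowest, then came neural progenitors with Hoxb1 alone, and the other 3 neural progenitor groups were highest. The ratio of the highest to the lowest mean among these 7 ran from 4.98 (Klf4) to 32.6 (Dppa5a). Among the 3 highest groups, libraries of neighbouring groups overlapped throughout for Zfp42, Esrrb and Prdm14. They overlapped for 1 pair of neighbours for Klf2 and Klf4, and for no pair for Nanog and Dppa5a. Tfcp2l1 followed neither order. It was highest in neural progenitors with neither treatment (38.2 ± 3.82 CPM), next in Hoxb1-null NMPs (30.2 ± 0.403), and lowest in wild-type NMPs (15.1 ± 0.382), whose libraries overlapped those with Hoxb1 alone (17.3 ± 2.22). These levels between NMPs and neural progenitors are a description without a test, since cell type and library set coincide.

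**Figure D2:**
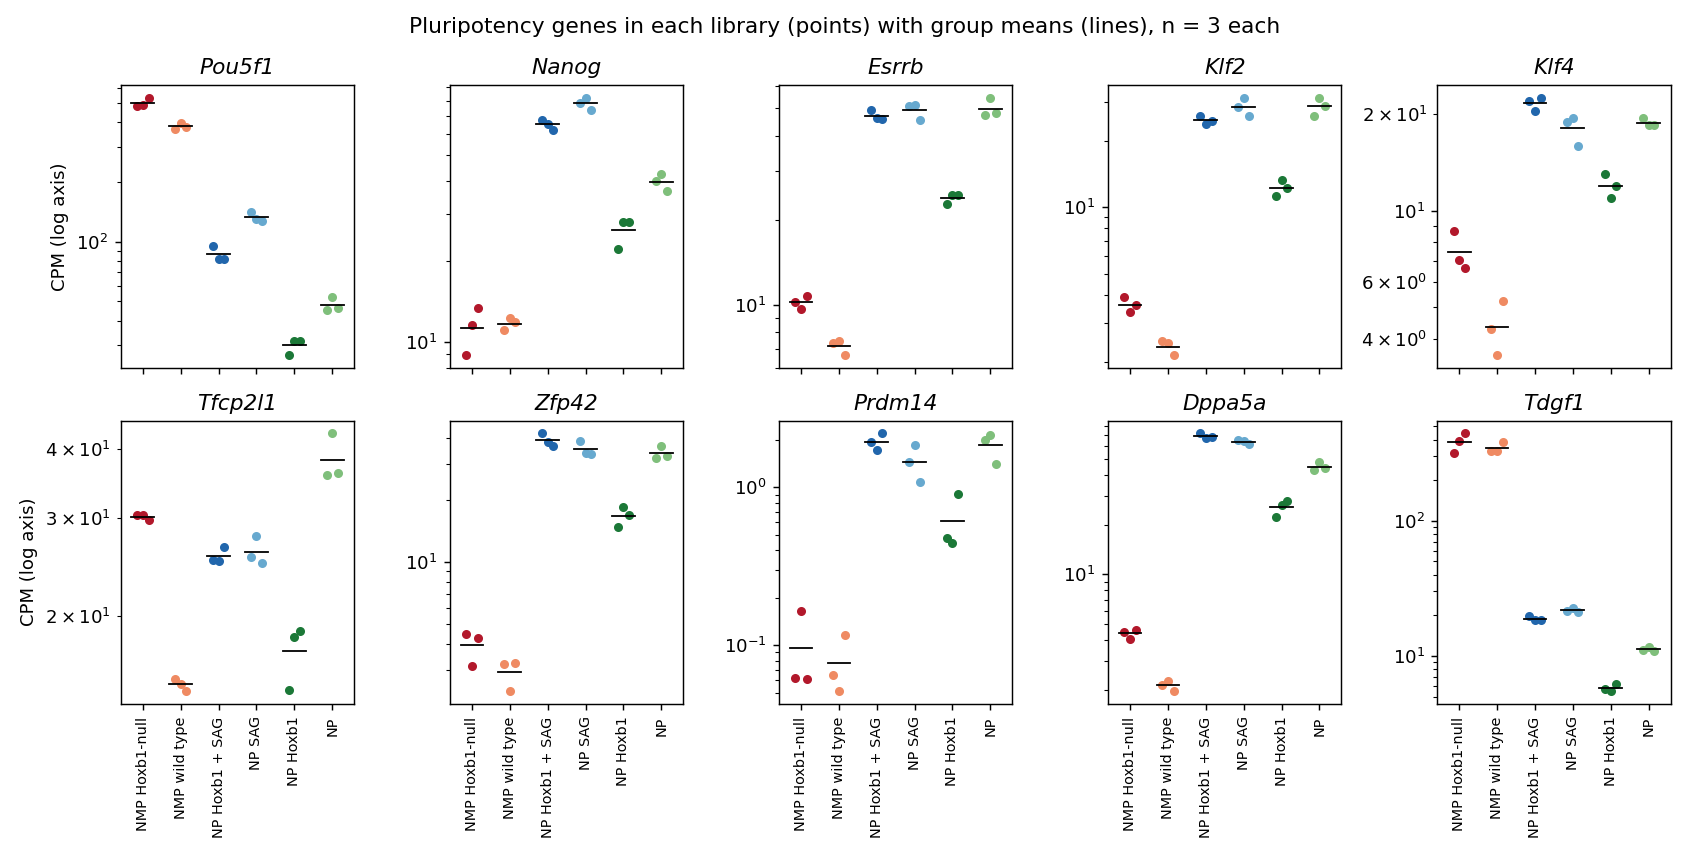
CPM of each pluripotency gene (y axes, log scale) in the 18 libraries (points) with the mean of each group (lines), n = 3 per group, the tested condition left of the one it is set against. Pou5f1 and Tdgf1 are highest in NMPs, most other members are highest in neural progenitors, and neural progenitors with Hoxb1 alone lie below the other 3 neural progenitor groups for all 10 genes.

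Loss of Hoxb1 in NMPs went with higher RNA of 6 members. Pou5f1, Esrrb, Klf2, Klf4, Tfcp2l1 and Dppa5a rose in Hoxb1-null cells, none fell, and Nanog, Zfp42 and Tdgf1 did not pass the test. Prdm14 was too low to be tested. The test was edgeR's quasi-likelihood test with Benjamini-Hochberg adjustment over 15032 genes, and genes with an adjusted p under 0.05 were called. Of those 15032 genes, 14.9% were called higher and 13.9% lower. The median log2 change was 0.52 over the 9 tested members and -0.00013 over all tested genes.

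Of the core factors, Pou5f1 had 484, 492 and 533 CPM in Hoxb1-null NMPs, against 370, 397 and 380 CPM in wild-type NMPs. Every null library was above every wild-type library, and the change was 1.32-fold (log2 0.40, SE 0.0391, adjusted p = 7.22e-08, edgeR). Nanog had 8.89, 11.6 and 13.3 CPM in Hoxb1-null NMPs, against 11.1, 12.2 and 11.8 CPM in wild-type NMPs. The null libraries lay on both sides of the wild-type ones, and the log2 difference was -0.05 (SE 0.115, adjusted p = 0.799, edgeR). Nanog had 143 to 238 counts per library, with a coefficient of variation of 19.8% among the Hoxb1-null and 5.11% among the wild-type libraries.

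Among the naive transcription factors the called changes were larger than that of Pou5f1. Tfcp2l1, a CP2-family factor downstream of LIF and STAT3, had 30.4, 30.4 and 29.7 CPM in Hoxb1-null NMPs, against 15.4, 15.1 and 14.6 CPM in wild-type NMPs. The libraries of a group differed by less than 1 CPM, and the change was 2.02-fold (log2 1.01, SE 0.0705, adjusted p = 3.26e-10, edgeR). Klf4, a Krüppel-like factor and a reprogramming factor, had 8.64, 7.04 and 6.63 CPM in Hoxb1-null NMPs and 4.29, 3.54 and 5.25 CPM in wild-type NMPs. Its groups did not overlap (log2 0.78, SE 0.149, adjusted p = 0.000349, edgeR). Klf2, a second Krüppel-like factor that overlaps with Klf4 in function, had 3.92, 3.35 and 3.59 CPM against 2.47, 2.41 and 2.13 CPM in wild-type NMPs. These libraries did not overlap either (log2 0.63, SE 0.167, adjusted p = 0.00631, edgeR), but the call was not kept by DESeq2 (adjusted p = 0.0671). Esrrb, an orphan nuclear receptor, had 10.3, 9.67 and 10.8 CPM in Hoxb1-null and 7.35, 7.45 and 6.63 CPM in wild-type NMPs, again apart (log2 0.52, SE 0.105, adjusted p = 0.000592, edgeR).

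The marker and effector genes were split. Dppa5a had 4.48, 4.07 and 4.63 CPM in Hoxb1-null NMPs and 2.15, 2.26 and 1.96 CPM in wild-type NMPs, on 33 to 76 counts per library. It had the largest change of the tested members (2.07-fold, log2 1.05, SE 0.163, adjusted p = 3.71e-05, edgeR). Zfp42 (Rex1), a zinc-finger gene widely used as a marker of naive cells, had 4.48, 3.13 and 4.26 CPM in Hoxb1-null NMPs and 3.19, 2.36 and 3.23 CPM in wild-type NMPs. Those ranges overlapped and the change was not called (log2 0.45, SE 0.178, adjusted p = 0.0647, edgeR). It was called without the second null library (adjusted p = 0.0233, edgeR). Tdgf1 had 317, 388 and 444 CPM in Hoxb1-null NMPs and 331, 328 and 382 CPM in wild-type NMPs. Its null libraries were the more spread, and the change was not called (log2 0.15, SE 0.149, adjusted p = 0.532, edgeR), though it was without the first null library (adjusted p = 0.0234, edgeR). Prdm14, a regulator of the naive state and of germ cell fate, had 1, 3 and 1 counts in Hoxb1-null NMPs and 1, 1 and 2 counts in wild-type NMPs.

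Other genes of pluripotency were read from lists chosen with earlier results of these data known. Of 20 other naive and core genes, 18 were tested in NMPs, and 10 rose and none fell in Hoxb1-null cells (median log2 change 0.21). Tbx3, a T-box factor of naive cells, stood at 31.7 ± 1.23 CPM in Hoxb1-null and 16.6 ± 0.375 CPM in wild-type NMPs (log2 0.94, adjusted p = 9.97e-10, edgeR). Tdh, the threonine dehydrogenase of embryonic stem cells, stood at 19.0 ± 0.776 and 10.7 ± 1.35 CPM in the same order (log2 0.84, adjusted p = 4.56e-07, edgeR). Of 13 tested formative and primed genes, 4 rose and 1 fell (median 0.01). Lefty1, a Nodal antagonist, fell to 13.8 ± 4.12 CPM in Hoxb1-null NMPs, against 26.7 ± 3.28 CPM in wild-type NMPs (log2 -0.95, adjusted p = 0.0172, edgeR). Of the 8 genes of LIF and STAT3 signalling, 2 rose and none fell (median 0.13), with Lif at 16.6 ± 1.23 CPM in Hoxb1-null and 11.9 ± 0.879 CPM in wild-type NMPs (adjusted p = 0.000294, edgeR).

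Genes of other cell types moved between the same libraries. Of the 10 NMP markers, 9 fell and 1 rose in Hoxb1-null cells (median log2 change -0.45). Germ cell markers included 3 that rose of 5 tested, and the 8 of them summed to 71.2 to 75.1 CPM in Hoxb1-null and 60.9 to 62.3 CPM in wild-type NMPs. Tfap2c of this list, like Prdm14, acts in the naive network as well as in germ cells. The 8 endoderm markers summed to 88.9 to 114 CPM in Hoxb1-null and 70.5 to 75.4 CPM in wild-type NMPs, with 3 of 5 tested rising. The 6 endothelial markers summed to 31.2 to 40.9 CPM and 20.2 to 23.1 CPM in the same order, with 3 of 4 tested rising and Emcn at 0 in the null libraries. Immediate early genes, which respond to handling and growth factors, summed to 522 to 566 CPM in Hoxb1-null and 437 to 517 CPM in wild-type NMPs, with 3 of 8 rising and 1 falling. The part of any of these cells or responses in the change of the 6 members was not tested.

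Gain of Hoxb1 in neural progenitors without SAG went with lower RNA of the 10 members. All 10 fell, and for none of them did a library with Hoxb1 reach the range of the libraries with neither treatment. How many of all tested genes were apart in this way was not counted. Among the 16238 genes tested in neural progenitors, 22.1% were called lower and 24.1% higher in this comparison. The median log2 change was -0.98 over the members and 0.00305 over all tested genes. On chromosome 8, where Klf2 and Zfp42 lie, 28.6% of 830 tested genes were called lower and 21.7% higher (median log2 change -0.04).

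Pou5f1 had 26.7, 31.7 and 31.7 CPM with Hoxb1, against 45.3, 52.4 and 46.2 CPM with neither (log2 -0.67, SE 0.103, adjusted p = 0.000156, edgeR). Nanog had 22.3, 28.0 and 28.2 CPM with Hoxb1, against 40.0, 42.4 and 36.7 CPM with neither (log2 -0.60, SE 0.0795, adjusted p = 9.48e-07, edgeR). The core factors had 2 of the 3 smallest changes of the 10. Klf4 was close to them, with 13.02, 10.999 and 12.003 CPM with Hoxb1, against 19.5, 18.6 and 18.5 CPM with neither (log2 -0.64, adjusted p = 1.33e-07, edgeR).

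The other naive factors stood at less than 50% of their level with neither treatment. Klf2 had 11.2, 13.2 and 12.1 CPM with Hoxb1, against 25.7, 31.2 and 28.7 CPM with neither, a 2.33-fold fall (log2 -1.22, SE 0.0898, adjusted p = 4.81e-14, edgeR). Tfcp2l1 had 14.7, 18.3 and 18.8 CPM with Hoxb1, against 35.8, 42.6 and 36.2 CPM with neither (2.20-fold lower, adjusted p = 5.05e-14, edgeR). Esrrb had 22.9, 24.6 and 24.7 CPM with Hoxb1, against 47.3, 54.5 and 48.0 CPM with neither (2.06-fold lower, adjusted p = 1.24e-16, edgeR). In each of the 3 the gap between the groups exceeded the range within either group. Prdm14 had 7, 6 and 13 counts with Hoxb1, against 28, 30 and 20 counts with neither. It had the largest change and the largest error (2.99-fold lower, log2 -1.58, SE 0.326, adjusted p = 8.92e-05, edgeR).

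Zfp42 had 14.7, 18.4 and 16.8 CPM with Hoxb1, against 31.8, 36.6 and 32.5 CPM with neither (log2 -1.01, SE 0.0856, adjusted p = 2.24e-11, edgeR). Dppa5a had 22.3, 26.4 and 28.0 CPM with Hoxb1, against 42.9, 47.9 and 44.1 CPM with neither (log2 -0.81, SE 0.0648, adjusted p = 8.11e-14, edgeR). Tdgf1 had 5.69, 5.50 and 6.18 CPM with Hoxb1, against 10.99, 11.7 and 10.9 CPM with neither (log2 -0.94, SE 0.107, adjusted p = 8.96e-10, edgeR). Markers, effector and transcription factors thus moved in 1 direction in these 6 libraries. The count of 10 lower was the same in each of the alternative settings.

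**Figure D3:**
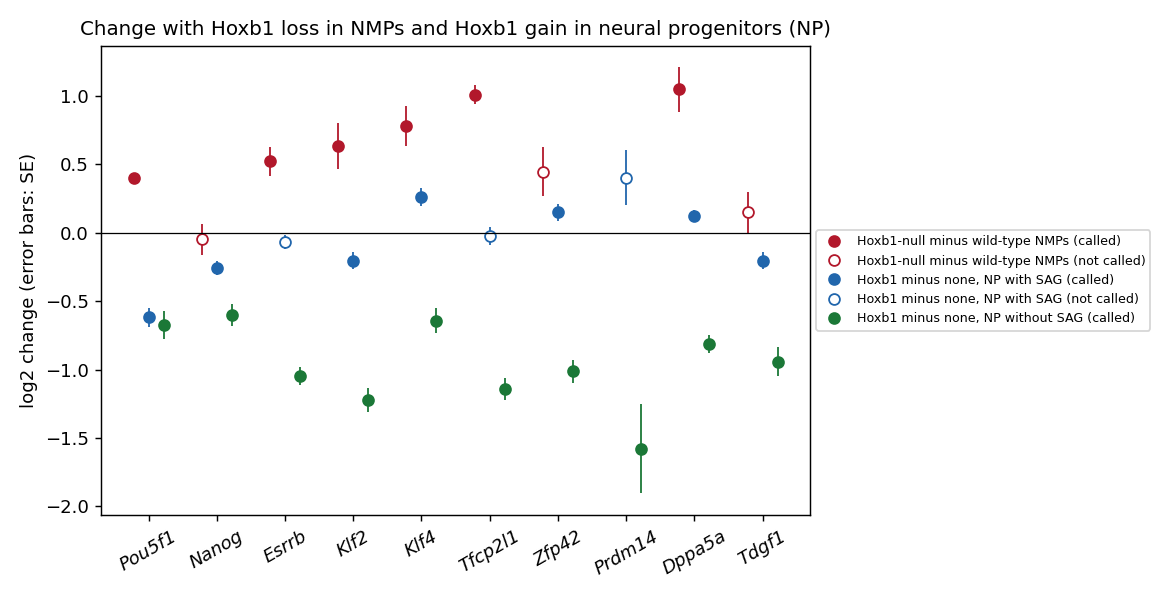
log2 change (y axis, error bars SE) of the 10 genes (x axis) for Hoxb1-null minus wild-type NMPs, for Hoxb1 minus none in neural progenitors with SAG, and for Hoxb1 minus none without SAG. Filled points were called at an adjusted p under 0.05 and open points were not. Called changes are above 0 in NMPs, below 0 without SAG, and on both sides of 0 with SAG.

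The fall reached most of the related genes without SAG. Of 20 other naive and core genes, 14 fell and 1 rose with Hoxb1 (median log2 change -0.73). Tcl1, which promotes Akt signalling in stem cells, stood at 1.79 ± 0.174 CPM with Hoxb1 and 4.72 ± 0.133 CPM with neither (log2 -1.39, adjusted p = 1.85e-07, edgeR). Of 14 formative and primed genes, 7 fell and 4 rose (median -0.26). Nodal, the ligand for which Tdgf1 is a co-receptor, stood at 1.97 ± 0.473 CPM with Hoxb1 and 4.56 ± 0.366 CPM with neither (adjusted p = 3.62e-07, edgeR). Of the LIF and STAT3 genes, 5 fell and 2 rose. Lifr, the LIF receptor gene, went the other way and stood at 77.5 ± 1.64 CPM with Hoxb1 and 35.7 ± 1.95 CPM with neither (log2 1.12, adjusted p = 4.06e-21, edgeR).

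Neural progenitor markers included 7 that rose and 3 that fell with Hoxb1 without SAG (median 0.36), and their sums overlapped, at 2388 to 2446 CPM with Hoxb1 and 2368 to 2506 CPM with neither. Endoderm markers summed to 17.9 to 22.7 CPM with Hoxb1 and 26.7 to 33.5 CPM with neither, with Afp at 0 in both groups and 3 of 6 tested falling. Endothelial markers summed to 11.4 to 13.7 CPM and 27.2 to 29.3 CPM, with 2 of 5 tested falling. One of these, Pecam1, is also expressed by embryonic stem cells and stood at 7.04 ± 0.363 CPM with Hoxb1 and 15.6 ± 1.36 CPM with neither (adjusted p = 2.13e-12, edgeR). The 8 immediate early genes included 6 that fell and 1 that rose. Germ cell markers included 5 that fell and 1 that rose, and summed to 108 to 117 CPM with Hoxb1 and 83.8 to 86.2 CPM with neither. Kit was the 1 that rose and the largest part of both sums. It stood at 88.3 ± 7.27 CPM with Hoxb1 and 41.5 ± 0.983 CPM with neither (adjusted p = 2.27e-20, edgeR). NMP markers summed to 12.6 to 13.3 CPM with Hoxb1 and 29.1 to 31.5 CPM with neither, with 5 of 8 tested falling and none rising (median -1.39), Cdx1 at 0 with Hoxb1 and Cdx4 at 0 with neither. The part of these lists in the fall of the members was not tested.

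With SAG the members did not move together. In libraries with Hoxb1 and SAG against those with SAG alone, 3 members rose (Zfp42, Klf4 and Dppa5a), 4 fell (Pou5f1, Nanog, Klf2 and Tdgf1) and 3 did not pass the test (Esrrb, Tfcp2l1 and Prdm14). Of all 16238 tested genes, 21.4% were called higher and 21.9% lower. The median log2 change was -0.04 over the members. On chromosome 8, where Klf2 and Zfp42 lie, 27.5% of 830 tested genes were called higher and 17.3% lower (median log2 change 0.04).

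Pou5f1 had the largest change here. It had 95.3, 82.1 and 81.5 CPM with Hoxb1 and SAG, against 142, 130 and 127 CPM with SAG alone (log2 -0.62, SE 0.0676, adjusted p = 9.87e-06, edgeR). Its groups were clearly apart. The other changes were small. Nanog had 67.8, 65.3 and 62.2 CPM with Hoxb1 and SAG, against 78.5, 81.9 and 73.7 CPM with SAG alone (log2 -0.26, SE 0.0539, adjusted p = 0.000412, edgeR). Tdgf1 had 19.7, 18.6 and 18.4 CPM, against 21.5, 22.5 and 21.3 CPM with SAG alone (log2 -0.20, adjusted p = 0.00571, edgeR). Klf2 had 25.7, 23.7 and 24.5 CPM, against 28.2, 31.2 and 25.7 CPM with SAG alone, and its highest and lowest libraries all but touched (log2 -0.20, adjusted p = 0.0107, edgeR). The call of Klf2 was lost without the second library with SAG alone (adjusted p = 0.133, edgeR), and that of Tdgf1 when the 18 libraries were fitted together (adjusted p = 0.303, edgeR).

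Klf4 had 22.01, 20.5 and 22.5 CPM with Hoxb1 and SAG, against 19.0, 19.5 and 16.0 CPM with SAG alone, and was the 1 member whose rise was called in each alternative setting (log2 0.26, SE 0.0666, adjusted p = 0.00136, edgeR). Dppa5a had 71.7, 67.7 and 68.4 CPM, against 65.4, 64.5 and 61.7 CPM with SAG alone (log2 0.12, adjusted p = 0.0267, edgeR). Zfp42 had 42.0, 38.2 and 36.6 CPM, against 38.6, 33.8 and 33.4 CPM, and these libraries overlapped (log2 0.15, adjusted p = 0.0477, edgeR). The calls of Dppa5a and Zfp42 were lost when the first library with Hoxb1 and SAG was left out (edgeR, adjusted p = 0.118 for Dppa5a and 0.25 for Zfp42), and likewise without the third library with SAG alone (adjusted p = 0.169 and 0.224). That of Dppa5a was also lost without the third library with Hoxb1 and SAG (adjusted p = 0.0609, edgeR).

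Esrrb had 49.2, 46.1 and 45.8 CPM with Hoxb1 and SAG and 51.1, 51.6 and 45.4 CPM with SAG alone (log2 -0.07, adjusted p = 0.313, edgeR). Tfcp2l1 had 25.2, 25.1 and 26.6 CPM and 25.6, 27.8 and 24.9 CPM in the same order (log2 -0.02, SE 0.0661, adjusted p = 0.815, edgeR). The libraries of both genes overlapped. Prdm14 had 45, 44 and 56 counts with Hoxb1 and SAG and 34, 53 and 26 counts with SAG alone (log2 0.40, SE 0.202, adjusted p = 0.104, edgeR), and was called higher without the second library with SAG alone (log2 0.63, adjusted p = 0.0262, edgeR). A miss of the threshold does not show that the levels were alike.

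Among the related lists, formative and primed genes had the most members that fell with SAG present. Of 14, 13 fell and 1 rose with Hoxb1 and SAG (median log2 change -0.80). Fgf5, a growth factor gene of the primed epiblast, stood at 2.51 ± 0.244 CPM with Hoxb1 and SAG and 9.84 ± 1.43 CPM with SAG alone (log2 -1.96, adjusted p = 3.52e-17, edgeR). The de novo methyltransferase gene Dnmt3b stood at 81.7 ± 3.35 and 216 ± 18.6 CPM in the same order (log2 -1.40, adjusted p = 1.36e-09, edgeR). Of 20 other naive and core genes, 7 fell and 2 rose (median -0.14), with the RNA-binding protein gene Lin28a at 115 ± 3.44 CPM with Hoxb1 and SAG and 173 ± 6.79 CPM with SAG alone (adjusted p = 7.43e-18, edgeR). Of the LIF and STAT3 genes 3 fell and 2 rose, and of the neural progenitor markers 7 fell and 1 rose (median -0.49). The neural progenitor markers summed to 1188 to 1239 CPM with Hoxb1 and SAG and 1562 to 1691 CPM with SAG alone. Of 8 immediate early genes, 4 rose and 1 fell.

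Other marker lists moved between these libraries as well. NMP markers summed to 17.3 to 19.2 CPM with Hoxb1 and SAG and 47.1 to 50.2 CPM with SAG alone, with 4 of 8 tested falling and none rising (median log2 change -0.77) and Cdx1 at 0 with Hoxb1 and SAG. Germ cell markers included 4 of 8 that fell and none that rose, with overlapping sums of 78.6 to 83.7 CPM and 80.8 to 87.7 CPM in the same order. Endothelial markers summed to 25.1 to 27.2 CPM with Hoxb1 and SAG and 31.5 to 34.1 CPM with SAG alone, with 3 of 5 tested falling and 1 rising. Endoderm markers included 2 that rose and 2 that fell of 6 tested. The part of these lists in the changes of the members was not tested.

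The difference between the Hoxb1 effects was then tested itself, as the effect with SAG minus the effect without SAG. It was above 0 and called for 9 of the 10 members and for none below 0. Of all 16238 tested genes, 16.8% were called higher and 18.6% lower. The median difference was 0.96 on the log2 scale over the members and -0.00333 over all genes. Pou5f1 was the exception, with a difference of 0.05 (SE 0.123, adjusted p = 0.787, edgeR). Nanog had the smallest called difference, 0.34 (SE 0.0963, adjusted p = 0.00736, edgeR). The other differences ran from 0.74 for Tdgf1 (SE 0.123, adjusted p = 5.6e-06, edgeR) to 1.98 for Prdm14 (SE 0.384, adjusted p = 5.93e-05, edgeR). In between lay Klf4 at 0.90, Dppa5a at 0.93, Esrrb at 0.98, Klf2 at 1.02, Tfcp2l1 at 1.12 and Zfp42 at 1.16. Libraries with and without SAG belong to separate runs of library numbers, so a difference by SAG and one by library set cannot be told apart. Hoxb1 itself was also 1.83-fold higher with SAG than without it in cells with Hoxb1 (adjusted p = 2.11e-19, edgeR). A difference by the level of Hoxb1 therefore cannot be told apart either.

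Of the other naive and core genes, 13 of 20 had a difference called above 0 and 4 below 0 (median 0.57). Of the formative and primed genes, 1 of 14 was called above 0 and 7 below (median -0.31). Fgf5 (difference -1.92, adjusted p = 1.23e-05, edgeR) and Fgf4 (1.13, adjusted p = 4.82e-10, edgeR), fibroblast growth factor genes of primed and naive cells, lay on opposite sides of 0. Without SAG, however, Fgf5 was low in both groups, at 1.15 ± 0.275 CPM with Hoxb1 and 1.19 ± 0.209 CPM with neither. A fall could hardly have been seen there. Immediate early genes were called above 0 in 7 of 8 cases and neural progenitor markers below 0 in 9 of 10. On chromosome 8, which carries Klf2 and Zfp42, the median difference of 830 tested genes was 0.07. Of these genes, 27.5% were called above 0 and 14.3% below, against 16.8% and 18.6% of all tested genes.

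SAG was associated with higher RNA of 4 members in cells without Hoxb1 and of 10 in cells with it. Without Hoxb1, Pou5f1, Nanog, Dppa5a and Tdgf1 rose, Tfcp2l1 fell, and Zfp42, Esrrb, Klf2, Klf4 and Prdm14 did not pass the test. Of all tested genes, 36.5% were called higher and 36.3% lower in this comparison. The member count is close to that background. The median log2 change was 0.03 over the members and 0.01 over all genes.

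Pou5f1 averaged 133 ± 7.66 CPM with SAG and 48.0 ± 3.88 CPM with neither, a 2.76-fold rise (log2 1.46, SE 0.0791, adjusted p = 2.66e-09, edgeR). Nanog averaged 78.0 ± 4.12 CPM with SAG and 39.7 ± 2.85 CPM with neither (log2 0.97, SE 0.063, adjusted p = 1.04e-12, edgeR). Tdgf1 averaged 21.8 ± 0.662 and 11.2 ± 0.448 CPM in the same order (log2 0.96, SE 0.0751, adjusted p = 9.86e-15, edgeR). Core factors and the co-receptor gene had thus the 3 largest rises. Dppa5a averaged 63.9 ± 1.94 CPM with SAG and 45.0 ± 2.62 CPM with neither (log2 0.50, adjusted p = 3.82e-11, edgeR). Tfcp2l1 averaged 26.1 ± 1.52 CPM with SAG and 38.2 ± 3.82 CPM with neither, a 1.47-fold fall (log2 -0.55, SE 0.0682, adjusted p = 8.84e-09, edgeR). The libraries of these 5 members did not overlap between the groups, and the share of all genes without overlap was not counted.

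The other 5 genes did not pass the test. Esrrb averaged 49.4 ± 3.46 CPM with SAG and 49.9 ± 3.97 CPM with neither (log2 -0.02, SE 0.0544, adjusted p = 0.747, edgeR). Klf2 averaged 28.4 ± 2.74 and 28.5 ± 2.75 CPM, and Klf4 18.1 ± 1.90 and 18.9 ± 0.538 CPM, in the same order. Zfp42 averaged 35.3 ± 2.86 and 33.7 ± 2.61 CPM, and Prdm14 1.45 ± 0.389 and 1.85 ± 0.392 CPM. Prdm14 was called lower without the second library with SAG alone (log2 -0.57, adjusted p = 0.0493, edgeR). The libraries of the 5 genes overlapped between the groups, and their log2 changes ran from -0.33 (Prdm14, SE 0.235, adjusted p = 0.201, edgeR) to 0.06 (Zfp42, SE 0.0687, adjusted p = 0.442, edgeR). The median change of 830 tested genes of chromosome 8 was -0.23 in this comparison, against 0.01 for all genes, and Klf2 and Zfp42 lie there.

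With Hoxb1 present, all 10 members rose with SAG and no library overlapped between the groups, though the share of all genes without overlap was not counted. Of all tested genes, 36.4% were called higher and 35.8% lower. The median log2 change was 1.27 over the members and 0.01 over all genes. These libraries also enter the Hoxb1 comparisons. The rise was largest for Tdgf1, which averaged 18.9 ± 0.692 CPM with Hoxb1 and SAG and 5.79 ± 0.349 CPM with Hoxb1 alone (3.24-fold, log2 1.70, SE 0.0893, adjusted p = 2.9e-20, edgeR). Prdm14 (1.65), Pou5f1 (1.52), Dppa5a (1.43), Nanog (1.31), Zfp42 (1.22), Klf2 (1.01), Esrrb (0.96) and Klf4 (0.84) had intermediate log2 changes. Tfcp2l1 had the smallest, averaging 25.6 ± 0.844 CPM with Hoxb1 and SAG and 17.3 ± 2.22 CPM with Hoxb1 alone (log2 0.56, SE 0.08, adjusted p = 1.47e-07, edgeR). Chromosome 8 genes had a median change of -0.14 here, while Klf2 and Zfp42 rose. Any part of the chromosome in the changes of these genes was not tested.

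**Figure D4:**
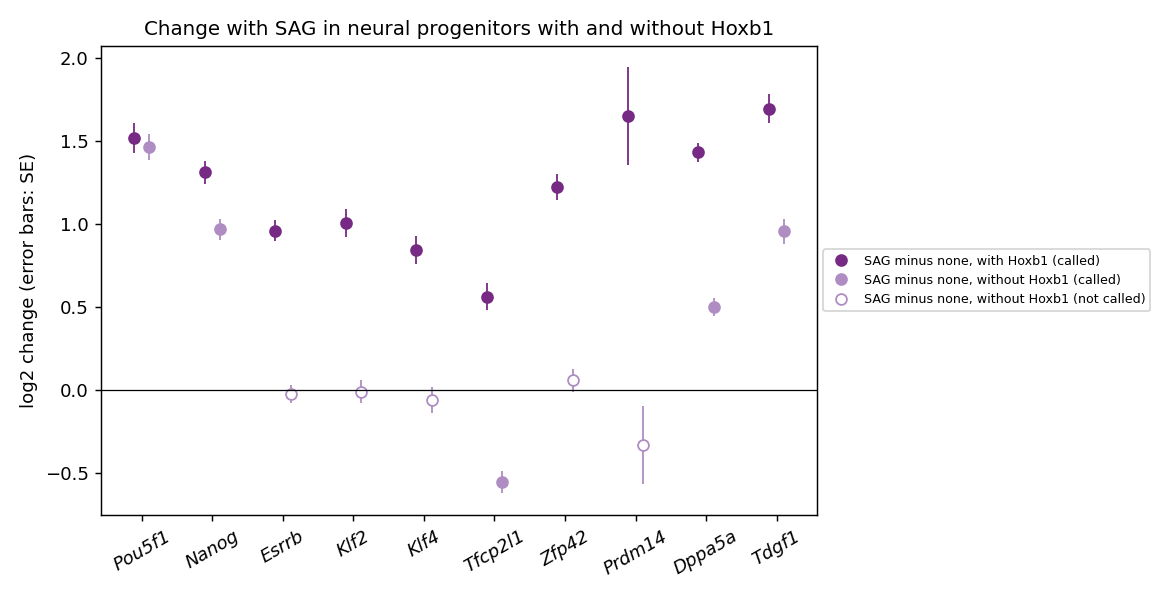
log2 change with SAG (y axis, error bars SE) of the 10 genes (x axis) in neural progenitors with Hoxb1 and without Hoxb1. Filled points were called at an adjusted p under 0.05 and open points were not. With Hoxb1 all 10 points are above 0, between 0.56 and 1.70, and without Hoxb1 5 of the points are open and near 0 or below it.

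Related genes moved with SAG as well. Of the other naive and core genes, 16 rose and 3 fell without Hoxb1 (median log2 change 0.63), and 17 rose and 3 fell with Hoxb1 (median 1.31). Lin28a averaged 173 ± 6.79 CPM with SAG and 40.9 ± 2.88 CPM with neither (log2 2.08, adjusted p = 4.43e-34, edgeR). Sall4, a zinc-finger partner of Oct4, averaged 119 ± 8.76 and 40.9 ± 1.00 CPM in the same order (log2 1.53, adjusted p = 8.16e-27, edgeR). Of the formative and primed genes, 10 of 14 rose and 4 fell without Hoxb1, and 8 rose and 4 fell with it. Lefty1 averaged 35.7 ± 0.744 CPM with SAG and 3.04 ± 0.499 CPM with neither (log2 3.55, adjusted p = 2.97e-30, edgeR). The LIF and STAT3 genes were divided, with 2 rising and 3 falling without Hoxb1, and 3 rising and 2 falling with it.

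Neural progenitor markers fell in 6 of 10 cases with SAG without Hoxb1 and in 9 of 10 with Hoxb1. They summed to 1562 to 1691 CPM with SAG and 2368 to 2506 CPM with neither, and to 1188 to 1239 CPM with Hoxb1 and SAG and 2388 to 2446 CPM with Hoxb1 alone. The 6 tested endoderm markers all rose with SAG in both settings, and summed to 155 to 160 CPM with SAG and 26.7 to 33.5 CPM with neither. Foxa2 was among them, a gene of endoderm and also of the floor plate, where hedgehog signalling induces it. Immediate early genes summed to 990 to 1071 CPM with SAG and 461 to 530 CPM with neither. Endothelial markers rose in 4 of 5 tested cases in both settings, with 1 falling without Hoxb1. Of 8 tested NMP markers, 3 rose and 5 fell with SAG without Hoxb1, and 3 rose and 2 fell with Hoxb1. Of 8 germ cell markers, 5 rose and 2 fell without Hoxb1, and 4 rose and 2 fell with it. The part of other cells, of the library set or of handling in the rises of the members was not tested.

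**Figure D5:**
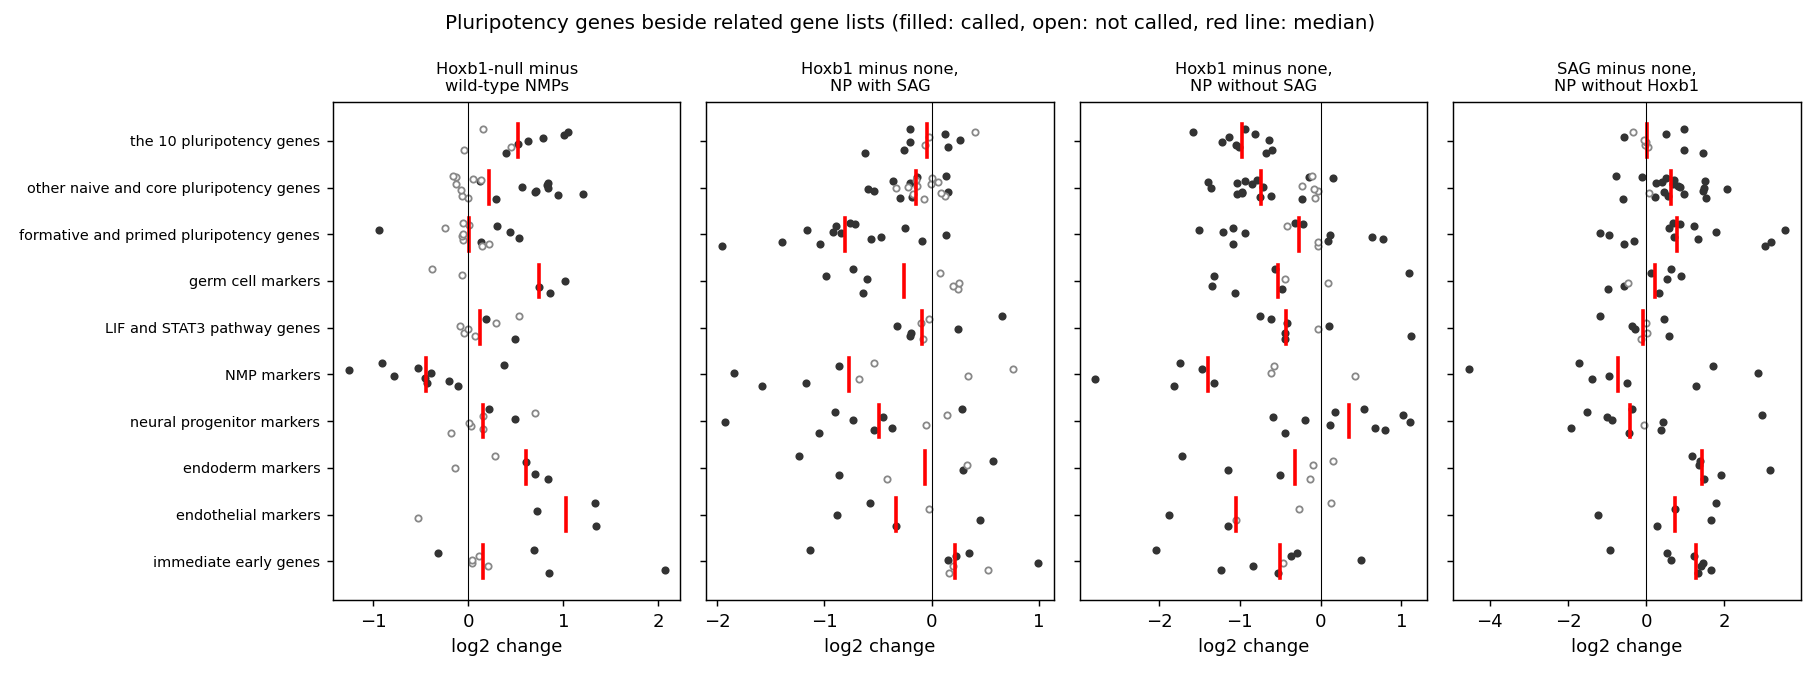
log2 change (x axes) of each tested gene (points, filled where called at an adjusted p under 0.05) of the 10 pluripotency genes and 9 related lists (rows) in 4 comparisons (panels), with the median of each list as a red line. The median of the pluripotency genes is 0.52 in NMPs, -0.04 with SAG, -0.98 without SAG, and 0.03 for SAG without Hoxb1.

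The likeness of 2 genes was measured as the root mean square difference of their log2 group means over the 6 groups, after each gene was centred on its own mean. It was 0.97 between Pou5f1 and Tdgf1. Either of these differed from the other 8 members by 1.59 to 4.12, in 16 pairs. The 7 members other than these and Tfcp2l1 differed among themselves by 0.17 to 1.12, in 21 pairs, and Tfcp2l1 differed from those 7 by 0.67 to 1.76. This grouping was made after the values were seen and has no test. The closest members were Klf2 and Zfp42 (0.17), both on chromosome 8, and next Prdm14 and Zfp42 (0.20).

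Among 13279 genes with a mean of at least 1 CPM, the gene nearest to Tdgf1 was Lefty2 (0.18), another gene of Nodal signalling. Tfap2c, a transcription factor of naive and germ cells, was nearest to Tfcp2l1 (0.16). The nearest gene to Zfp42 was Pde1a (0.087), that to Nanog was Thsd4 (0.13) and that to Pou5f1 was Zfp345 (0.13). The nearest genes to Esrrb, Klf2, Klf4 and Dppa5a were Gstm3 (0.12), Necab1 (0.11), Exoc3l4 (0.17) and Aire (0.18). For most members the nearest genes were not members, and with 6 group means per gene such nearness is a description.

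Other genes in the table were found that share sequence or position with Tdgf1, Pou5f1 and Tfcp2l1. Sequence copies were sought only as pseudogenes named after a member. Copies of any member under other names were not looked for. Tdgf1 has a processed pseudogene in the table, Tdgf1-ps1, whose counts were 8.002% of those of Tdgf1 in Hoxb1-null and 7.09% in wild-type NMPs. They were 20.5% with Hoxb1 and SAG, 20.4% with SAG alone, 21.1% with Hoxb1 alone and 19.1% with neither. How reads shared by the 2 copies were counted is not stated, and the Tdgf1 level is uncertain to that extent. A further pseudogene, Tdgf1-ps2, had 6 counts in the 18 libraries together. Pou5f1 overlaps an antisense gene, Gm19553, with 25 counts in the 18 libraries together, against 65371 for Pou5f1. Tfcp2l1 overlaps the small RNA gene Gm23497 and the rRNA gene Gm22094, which had 0 counts.

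The 10 genes lie on 7 chromosomes of mm10. Tfcp2l1 lies on chromosome 1 at 118627945 to 118685167, and Prdm14 on the same chromosome at 13113457 to 13127163. Klf4 lies on chromosome 4 at 55527143 to 55532466 and Nanog on chromosome 6 at 122707489 to 122714633. Zfp42 lies on chromosome 8 at 43295068 to 43307009 and Klf2 at 72319033 to 72321656. Dppa5a lies on chromosome 9 at 78367052 to 78368177 and Tdgf1 at 110939610 to 110946158. Esrrb lies on chromosome 12 at 86361117 to 86521628 and Pou5f1 on chromosome 17 at 35506037 to 35510776. Counts were summed over the exons of each gene.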

How the data were processed

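RNA was polyA-selected and made into libraries with a directional kit and 15 PCR cycles, per the labels' protocols. The authors deposited 1 table of whole-number read counts per gene with exon lengths, made with featureCounts 1.4.6 on mm10 after bcl2fastq 1.8.2, per the submitters' processing notes. The aligner, strand setting and treatment of multimapping reads were not stated there. Symbols were matched for 35449 of 37224 genes. NMP libraries (6) and neural progenitor libraries (12) were fitted separately with edgeR 4.0.16 in R 4.3.3, using its default expression filter, TMM scaling, robust quasi-likelihood tests and Benjamini-Hochberg adjustment over all tested genes. CPM used TMM factors over the 18 libraries, and TPM used the deposited exon lengths. No 2 libraries of a group agreed within counting noise. DESeq2 1.42.0, other scalings and filters, other sets of libraries and the loss of each library were tried. The members and the related lists were chosen with earlier results of these data known. All 10 members were named, and from each related list at most 3 called genes per comparison with the largest changes and at least 1 CPM. Sox2 was named in addition, as a core factor outside the members. Fits were tested on simulated data.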

Additional observations from a re-analysis of the deposited data

Results flagged for a closer look

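For 9 of the 10 members the effect of Hoxb1 differed between neural progenitors with SAG and those without SAG, by the test of the difference itself (edgeR, 3 libraries in each of 4 groups). Of all 16238 tested genes, 16.8% were called above 0 and 18.6% below 0 in this test. The log2 difference was 1.98 for Prdm14, 1.16 for Zfp42, 1.12 for Tfcp2l1, 1.02 for Klf2, 0.98 for Esrrb, 0.93 for Dppa5a, 0.90 for Klf4, 0.74 for Tdgf1 and 0.34 for Nanog. That of Prdm14 had an SE of 0.384, with 6 to 13 counts per library with Hoxb1 alone. The difference of Tdgf1 was not called when the 18 libraries were fitted together (adjusted p = 0.0919, edgeR). SAG, the set of library numbers and the level of Hoxb1 itself (595 CPM with Hoxb1 and SAG, 324 CPM with Hoxb1 alone) cannot be told apart in these values.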

How the results depend on the processing

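The counts of 10 members lower with Hoxb1 without SAG and of 10 higher with SAG in the presence of Hoxb1 were the same in every alternative run. With SAG, the members higher with Hoxb1 numbered 3, but 1 with upper-quartile scaling and 1 with DESeq2, and 1 to 3 when single libraries were left out (1 without the third library with SAG alone or the first with Hoxb1 and SAG). The members lower there numbered 4, but 2 with DESeq2 (adjusted p = 0.0513 for Klf2 and 0.0563 for Tdgf1). The members lower with SAG without Hoxb1 numbered 1 to 2 when single libraries were left out, Prdm14 being added without the second library with SAG alone (adjusted p = 0.0493, edgeR). Zfp42 lost its call with SAG in 12 alternatives. Changes that turned sign were never called. Leaving out single libraries gave -0.18 to 0.088 for Nanog in NMPs, -0.062 to 0.025 for Tfcp2l1 with Hoxb1 and SAG, and -0.027 to 0.10 for the Pou5f1 difference. For SAG without Hoxb1 it gave -0.0067 to 0.12 for Zfp42, -0.067 to 0.038 for Esrrb, -0.091 to 0.055 for Klf2 and -0.12 to 0.021 for Klf4. There, upper-quartile scaling gave 0.025 for Esrrb and 0.037 for Klf2, and no filter gave 0.011 for Klf2. The cause was not tested. Of all genes in NMPs, 2244 were called higher by edgeR and 1424 by DESeq2. With the replicate number as a block, 8 members were higher in Hoxb1-null NMPs, Zfp42 and Tdgf1 included, and the other member counts did not change. Deviations of same-numbered libraries correlated at -0.0423 to 0.16. With SAG the first and second pairs reached 0.16 and 0.15 and the third 0.00504, and no comparison had all its pairs above 0.1, so the numbers were not treated as pairs. Prdm14 in NMPs, at 1 to 3 counts, was below what the depth could test.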
